A study of Mus musculus with 48 samples.

Results

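The 7 genes described here encode enzymes that make asparagine, proline, alanine and aspartate: Asns, Aldh18a1, Pycr1, Gpt, Gpt2, Got1 and Got2. They were chosen by name from what is known of the pathways, with earlier results of these data known. Each symbol matched 1 of the 34183 genes in both deposited tables, so all 7 were followed in all 48 libraries. RNA came from primary cultures of adult mouse DRG (dorsal root ganglion, where sensory neurons have their cell bodies), wildtype in genotype, enriched for neurons and kept in Neurobasal-A with B27. Cells transfected right after isolation and harvested at 42 h received either a control siRNA pool (siCONTROL) or a pool against Atf4, Atf3, Jun, Stat3, Klf6, Rest or Alyref (siAtf4 and so on), or custom mRNA for GFP (GFP_mRNA), for Atf4 (ATF4_mRNA) or for Atf4 and Cebpg together (Atf4_mRNA_Cebpg_mRNA). The cells of t_0 were collected at time 0 without transfection, and there were 4 libraries in each of the 12 groups. The control pool and the GFP mRNA are the controls of the 42 h groups, so siCONTROL against t_0 compares cells that differ in both time in culture and transfection, and these cannot be told apart. Beyond adult and wildtype, nothing on the animals was given. It is also unstated whether replicates came from different animals or dishes, and the p-values below therefore reflect only the scatter among these libraries, part of which may be technical.

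Asparagine synthetase, Asns, makes asparagine from aspartate with glutamine as the nitrogen donor. Aldh18a1 turns glutamate into the precursor of proline, and Pycr1, a mitochondrial reductase, completes proline. The alanine aminotransferases Gpt (cytosolic) and Gpt2 (mitochondrial) make alanine from pyruvate, and the aspartate aminotransferases Got1 (cytosolic) and Got2 (mitochondrial) interconvert aspartate and glutamate and carry electrons into mitochondria as parts of the malate-aspartate shuttle. Atf4 is a bZIP transcription factor whose translation rises under amino acid shortage and other stresses. It binds DNA with C/EBP partners such as Cebpg at composite C/EBP-ATF elements, and amino acid synthesis genes are among its known targets, Asns being a classic example.

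The sequences upstream of 4 members are shown because these genes responded differently to Atf4 knockdown: Asns, Pycr1 and Aldh18a1 fell strongly, and Got1 fell little. Each is the 250 bases before the RefSeq transcription start in build GRCm38.p6, written 5′ to 3′ on the gene's strand, with capitals on matches to the C/EBP-ATF composite TGATGNAA or its reverse complement TTNCATCA. The windows are chr6:7693210-7693459 for Asns, chr11:120643749-120643998 for Pycr1, chr19:43524606-43524855 for Got1 and chr19:40588464-40588713 for Aldh18a1, all on the minus strand.
Asns: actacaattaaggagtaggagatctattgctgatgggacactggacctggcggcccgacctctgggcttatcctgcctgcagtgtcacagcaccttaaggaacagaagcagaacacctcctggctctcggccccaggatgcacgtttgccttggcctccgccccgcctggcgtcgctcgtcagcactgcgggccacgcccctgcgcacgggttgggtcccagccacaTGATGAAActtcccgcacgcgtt
Pycr1: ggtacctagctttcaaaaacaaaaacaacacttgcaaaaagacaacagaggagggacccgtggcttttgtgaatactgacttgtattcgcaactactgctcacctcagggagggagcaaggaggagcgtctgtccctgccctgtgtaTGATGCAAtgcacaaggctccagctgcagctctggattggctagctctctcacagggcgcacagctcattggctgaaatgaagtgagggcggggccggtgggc
Got1: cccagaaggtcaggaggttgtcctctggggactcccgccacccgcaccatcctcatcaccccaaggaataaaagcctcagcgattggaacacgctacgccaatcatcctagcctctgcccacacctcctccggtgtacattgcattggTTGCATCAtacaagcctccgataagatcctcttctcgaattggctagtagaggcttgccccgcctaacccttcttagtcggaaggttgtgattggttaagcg
Aldh18a1: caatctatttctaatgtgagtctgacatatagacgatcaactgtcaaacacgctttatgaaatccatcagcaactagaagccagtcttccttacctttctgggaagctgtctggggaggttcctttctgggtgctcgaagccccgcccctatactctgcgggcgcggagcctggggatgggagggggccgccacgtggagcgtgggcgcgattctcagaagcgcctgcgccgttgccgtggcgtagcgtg

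The composite matched at bases -23 to -16 of Asns (TGATGAAA), at -103 to -96 of Pycr1 (TGATGCAA) and at -102 to -95 of Got1 on the opposite strand (TTGCATCA), counted from the start. The windows of Aldh18a1, Got2 and Gpt2 had no match to these letters. Gpt2, whose window is not shown, also fell in siAtf4 (1.97-fold), while Got2 was not called there. Across 32851 RefSeq windows, which run from 250 bases before to 50 after the start, 3.97% held the composite. The other motifs searched on both strands were AP-1 (TGANTCA, in 7.81% of windows), CRE (TGACGTCA, in 1.79%) and STAT (TTCNNNGAA, in 8.3%). Among the 6 members with a window, their only matches were a pair of STAT matches in Aldh18a1, starting at -154 and -39. A match is a run of letters and not a measured binding site, and Asns and Got1, which both hold the composite, differed in their response by the values below.

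Library totals ran from 1539198 counts (siKlf6 replicate 1) to 6621566. Atf4 itself, the transcript that each Atf4 group targets, fell 5.96-fold in siAtf4 (95.4 ± 23.8 CPM against 568 ± 36.3 in siCONTROL, SD, n = 4 each) and reached 14100 ± 3880 CPM in ATF4_mRNA and 20700 ± 9550 in Atf4_mRNA_Cebpg_mRNA against 640 ± 53.4 in GFP_mRNA, where reads of the added mRNA and of the cell's own cannot be told apart. CPM here is the count scaled to a common library total after TMM scaling. None of the 10 neuron markers was at 0 throughout any group, and their sum at 42 h was 9580 to 13900 CPM, against 455 to 892 for 8 satellite glia markers, so RNA of glia was also present. In bulk RNA, fewer cells of a type and less RNA per cell cannot be told apart. Cebpg stood at 186 CPM in siKlf6 replicate 5 against 29.8 to 52.1 in the other siKlf6 libraries.

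The 7 genes spanned a wide range of levels. The deposited counts are weighted by transcript length, so CPM is on a scale per length and levels can be set side by side between genes. In siCONTROL the means were 369 ± 25.1 CPM for Asns, 307 ± 31.6 for Got1, 286 ± 16.5 for Got2, 45.1 ± 6.48 for Gpt2, 41.2 ± 7.2 for Aldh18a1, 7.8 ± 1.87 for Pycr1 and 2.29 ± 1.96 for Gpt (SD, n = 4). The mitochondrial alanine aminotransferase was thus the main form in these cultures, and the proline reductase was the scarcest of the responding genes.

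**Figure D1:**
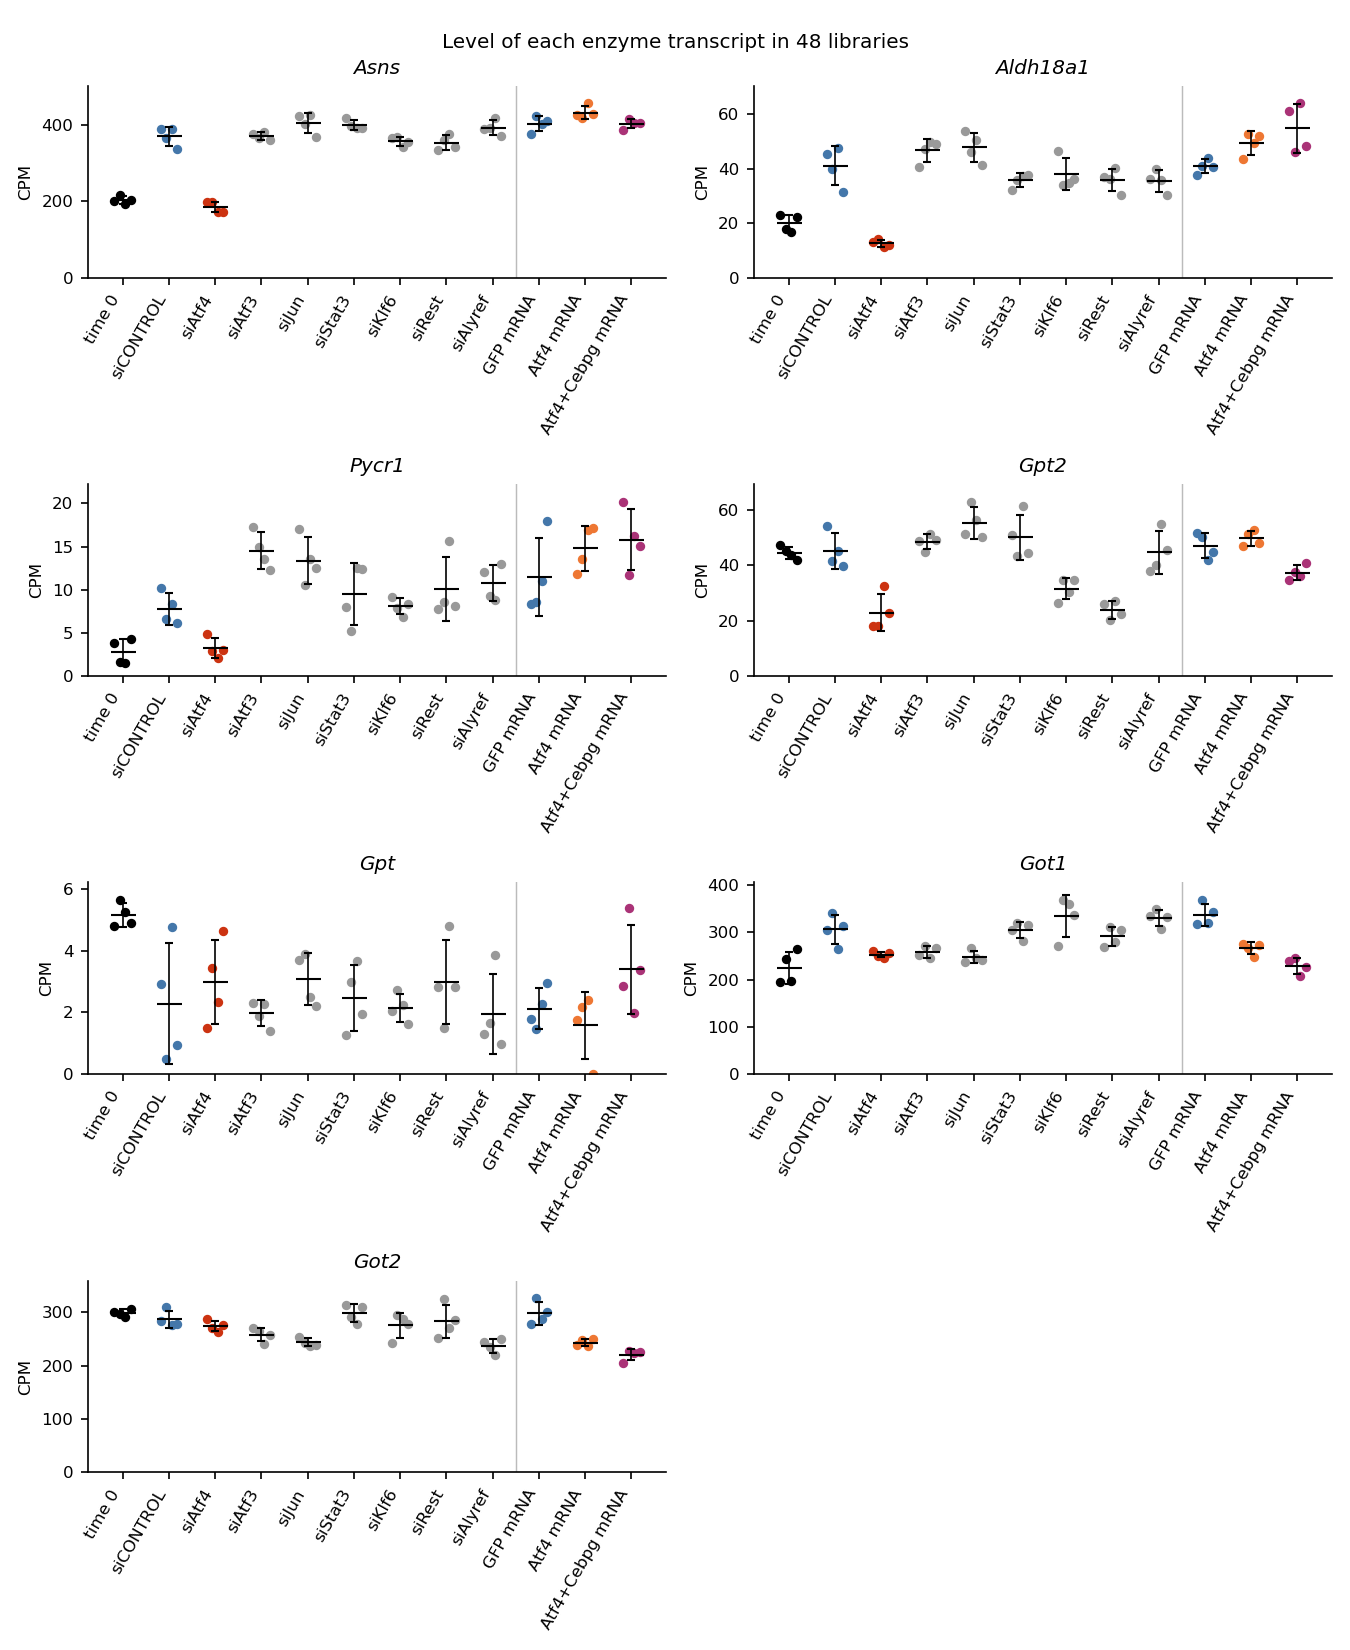
Level of each gene (CPM, y axis from 0) in every library, by group. Each point is a library, and bars are the mean and SD of 4 libraries. The groups right of the grey line come from a table normalized on its own. Asns in siAtf4 lies between 172 and 197 CPM, below all siCONTROL libraries (336 to 389).

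In siAtf4 against siCONTROL, 5 of 7 members fell (adjusted p under 0.05, edgeR's quasi-likelihood test with Benjamini-Hochberg adjustment over 14876 genes) and 0 rose, where 4.17% of all genes fell and 2.74% rose (6.91% in all). The median log2 fold change was -0.98 over the members and 0 over all genes tested. Because the members were chosen with earlier results of these data known, their contrast with all genes is not independent of the data. Against the mean of the other 6 knockdowns, a comparison that leaves out siCONTROL, the same 5 members fell, where 9.28% of all genes fell and 10.5% rose (19.8% in all), and each kept its call in all 34 alternatives tried. In siAtf3, 1 member rose (4% of all genes) and 1 fell (7.49%), with 11.5% of all genes called in either direction. In siJun, 1 rose (3.19%) and 2 fell (4.59%), against 7.78% of all genes in either direction. In siRest 1 member fell and 0 rose, where 0.188% of all genes fell and 0.0134% rose (0.202% in all). In siAlyref 1 member fell and 0 rose, where 3.37% of all genes fell and 0.881% rose (4.26% in all). In siStat3, where 1.19% of all genes rose and 1.84% fell (3.03% in all), 0 members were called by edgeR, DESeq2 or limma-trend. The same tools called 0 in siKlf6, where 0.706% of all genes rose and 1.14% fell (1.85% in all). At an unadjusted p under 0.05 that count was 0 in siStat3 and 1 in siKlf6. These comparisons share the 4 siCONTROL libraries.

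**Figure D2:**
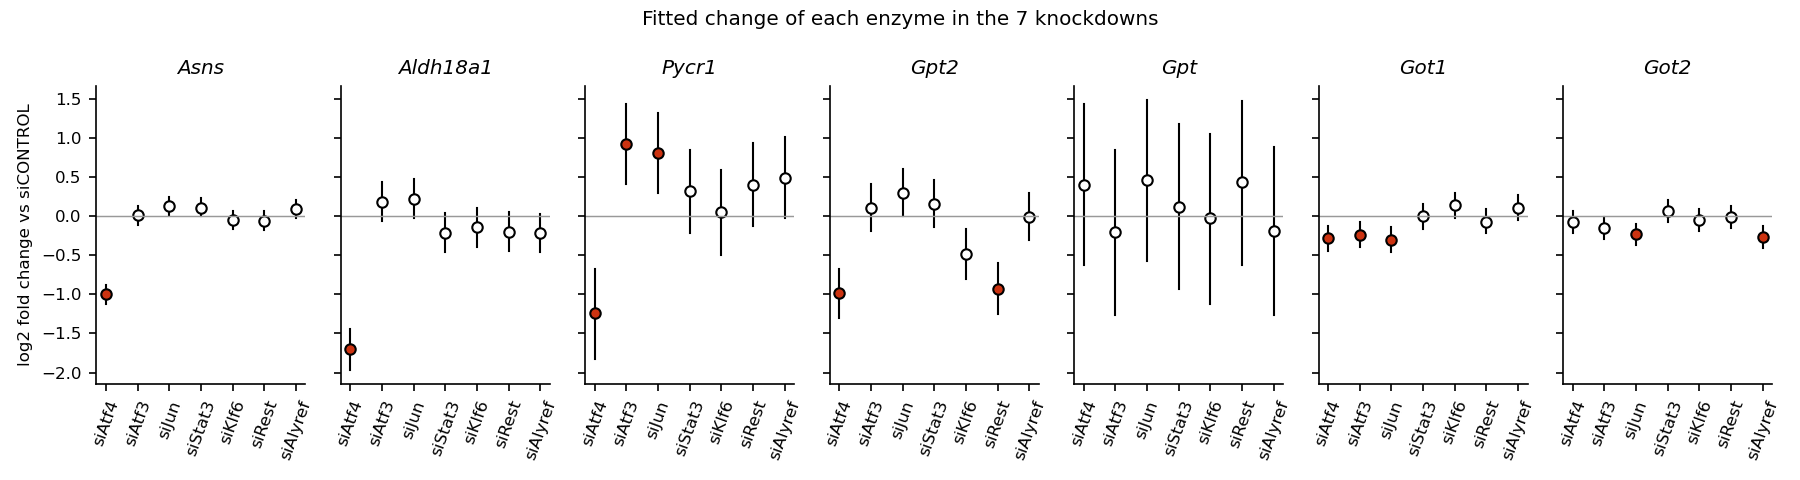
Fitted log2 fold change of each gene against siCONTROL (y axis) in the 7 knockdowns (x axis), with the 95% confidence interval from edgeR. Filled points have an adjusted p under 0.05. Asns and Aldh18a1 are filled in siAtf4 and in no other knockdown, and Gpt2 in siAtf4 and siRest.

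With added mRNA, 0 members rose and 2 fell in ATF4_mRNA against GFP_mRNA (2.76% and 2.09% of 13857 genes, 4.84% in all). In Atf4_mRNA_Cebpg_mRNA against GFP_mRNA, 1 rose and 3 fell (12.4% and 12.2% of all genes, 24.6% in all). Both share the 4 GFP_mRNA libraries. Between the 2 Atf4 groups, 1 member was lower and 0 higher with Cebpg added (2.1% and 4.5% of all genes, 6.6% in all). From t_0 to siCONTROL, 4 members rose and 0 fell, where 28.7% and 29.2% of 13448 genes did. From t_0 to siAtf4, 2 fell and 0 rose (30.5% and 30.7% of 13486 genes). With 57.9% and 61.1% of all genes called in either direction, these last counts are read only gene by gene.

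**Figure D3:**
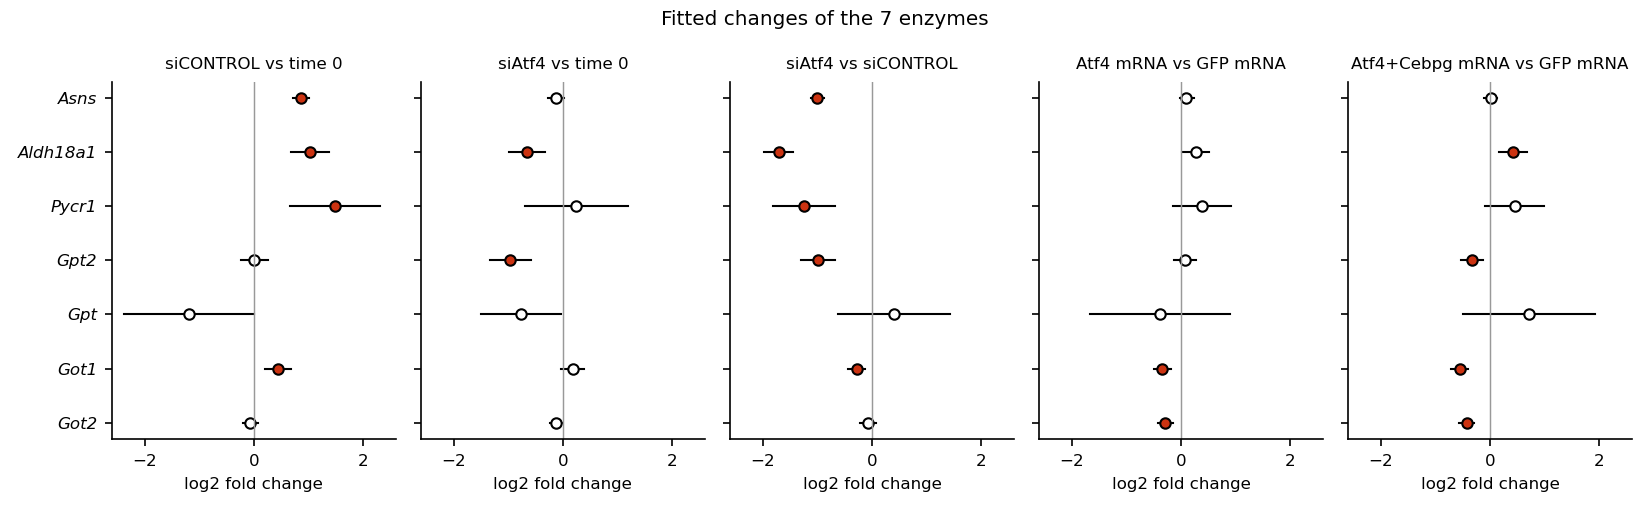
Fitted log2 fold change (x axis) with 95% confidence interval for the 7 genes in 5 comparisons. Filled points have an adjusted p under 0.05 by edgeR. Asns, Aldh18a1, Pycr1 and Got1 are filled to the right in siCONTROL against time 0, and in siAtf4 against time 0 only Aldh18a1 and Gpt2 are filled, to the left.

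The Asns transcript fell in siAtf4. Asns (ENSMUSG00000029752.13) stood at 389, 365, 388 and 336 CPM in the siCONTROL libraries and at 197, 197, 173 and 172 in siAtf4. All siAtf4 libraries lay below all controls, and the gap was wider than either group's spread. The fitted fall was 2-fold (log2 -1 ± 0.059 SE, adjusted p = 6.32e-13, edgeR). At t_0 the 4 libraries gave 200, 216, 194 and 203 CPM, so Asns rose 1.81-fold to siCONTROL (log2 0.86 ± 0.069, adjusted p = 1.3e-06, edgeR). In siAtf4 the level at 42 h overlapped that at t_0, and the difference had a log2 interval of -0.28 to 0.02 (adjusted p = 0.116). Across the 9 groups of the siRNA table, siAtf4 (185 ± 14) and t_0 (203 ± 9.09) formed the low end, and the other 7 means ran from 353 ± 19 in siRest to 404 ± 26.4 in siJun, and the libraries of neighbours in this order overlapped. All 4 siStat3 libraries (391 to 419) lay above the controls, yet the difference was 1.08-fold with an adjusted p of 0.389.

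Adding Atf4 mRNA moved Asns little. GFP_mRNA libraries gave 376, 424, 402 and 409 CPM, ATF4_mRNA 426, 418, 456 and 428, and Atf4_mRNA_Cebpg_mRNA 387, 414, 406 and 405. The groups overlapped, apart from the libraries with Cebpg all lying below those with Atf4 alone. The log2 difference from GFP_mRNA was 0.1 (interval -0.02 to 0.23, adjusted p = 0.36) with Atf4 and 0.01 (-0.12 to 0.13, adjusted p = 0.966) with Atf4 and Cebpg. The upper bounds lie well under the fall seen in the knockdown, with the Atf4 transcript 22-fold and 32.5-fold higher than in GFP_mRNA. Protein was not measured.

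**Figure D4:**
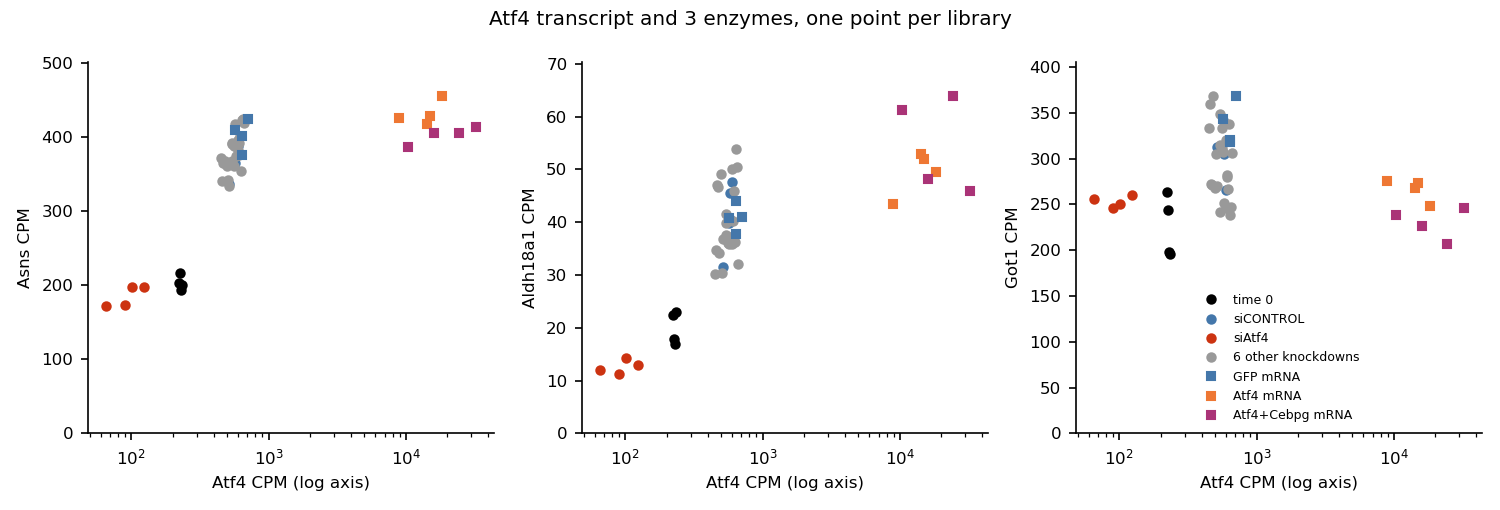
Atf4 CPM (x axis, log scale) against Asns, Aldh18a1 and Got1 CPM (y axes from 0), a point per library. Squares are libraries of the mRNA table, normalized on its own. Asns lies at 172 to 197 CPM in siAtf4, 194 to 216 at time 0 and 336 to 389 in siCONTROL. In the mRNA table it lies at 376 to 424 CPM in GFP_mRNA, 418 to 456 in ATF4_mRNA and 387 to 414 in Atf4_mRNA_Cebpg_mRNA.

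The proline genes Aldh18a1 and Pycr1 fell in siAtf4 too. Aldh18a1 (ENSMUSG00000025007.14) gave 45.5, 39.9, 47.7 and 31.6 CPM in siCONTROL and 13, 14.2, 11.2 and 12 in siAtf4, with no overlap. It fell 3.26-fold (log2 -1.7 ± 0.131 SE, adjusted p = 1.63e-10, edgeR). It dropped below its starting level: t_0 libraries held 23, 17.8, 16.9 and 22.4 CPM, and siAtf4 was 1.58-fold lower than these (adjusted p = 0.00276), whereas siCONTROL was 2.05-fold higher than t_0 (adjusted p = 0.000196). Aldh18a1 was not called in any other knockdown, whose means ran from 35.5 ± 4.01 in siAlyref to 47.9 ± 5.34 in siJun.

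Aldh18a1 was also the one member to rise with added mRNA. It stood at 37.8, 40.9, 44.1 and 40.8 CPM in GFP_mRNA and at 61.2, 46, 64 and 48.2 in Atf4_mRNA_Cebpg_mRNA, where every library lay above the controls. The rise was 1.33-fold (log2 0.42 ± 0.117 SE, adjusted p = 0.0195, edgeR). It missed the threshold without GFP_mRNA replicate 1 (adjusted p = 0.056) or Atf4_mRNA_Cebpg_mRNA replicate 3 (0.0547). In ATF4_mRNA its libraries (43.4, 52.9, 49.5 and 51.9 CPM) overlapped those of GFP_mRNA, with a log2 difference of 0.27 (interval 0.02 to 0.52, adjusted p = 0.211).

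Pycr1 (ENSMUSG00000025140.16) was a low transcript with a wide swing. The siCONTROL libraries held 10.2, 6.54, 8.3 and 6.14 CPM, and those of siAtf4 held 4.85, 2.88, 2.12 and 3.03, all lower. The fitted fall was 2.37-fold (log2 -1.24 ± 0.282 SE, adjusted p = 0.00465, edgeR). Pycr1 at t_0 was as low as in siAtf4 (3.81, 1.61, 1.46 and 4.28 CPM) and rose 2.8-fold to siCONTROL (adjusted p = 0.00521), while siAtf4 and t_0 overlapped (log2 interval -0.7 to 1.19, adjusted p = 0.642).

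Pycr1 went the other way when Atf3 or Jun, which encode injury-induced bZIP factors, was knocked down. It stood at 17.3, 15, 13.5 and 12.3 CPM in siAtf3, a 1.89-fold rise (adjusted p = 0.0126, edgeR). In siJun it stood at 17, 10.5, 13.5 and 12.5 CPM, a 1.75-fold rise (adjusted p = 0.0418). Every library of both groups lay above the 4 controls. Means in siKlf6, siStat3, siRest and siAlyref also lay above siCONTROL (7.8 ± 1.87 CPM), from 8.09 ± 0.958 in siKlf6 to 10.8 ± 2.07 in siAlyref. Pycr1 was not called in any of these groups. The call in siAtf3 was lost only without siCONTROL replicate 2 (adjusted p = 0.0546). The call in siJun was lost without siCONTROL replicates 2, 3 or 4 (adjusted p = 0.138, 0.069 and 0.122) and without siJun replicates 1, 3 or 4 (0.145, 0.0877 and 0.0641), and in 2 other settings given in the closing section. Aldh18a1, the preceding enzyme, had log2 differences of 0.18 and 0.22 there and was not called. In GFP_mRNA, Pycr1 ranged from 8.39 to 18 CPM, which the 2 Atf4 groups overlapped (adjusted p = 0.424 and 0.215). Without GFP_mRNA replicate 4, the highest, the rise with Atf4 and Cebpg was called (log2 0.74, adjusted p = 0.0244).

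Of the alanine aminotransferases, the mitochondrial Gpt2 (ENSMUSG00000031700.12) fell in siAtf4. It gave 54.2, 41.4, 45.1 and 39.7 CPM in siCONTROL and 17.9, 18.2, 32.4 and 22.9 in siAtf4, all below. It fell 1.97-fold (log2 -0.98 ± 0.154 SE, adjusted p = 6.89e-05, edgeR). Gpt2 did not share the rise in culture: t_0 libraries held 47.2, 45.1, 43.7 and 41.8 CPM, within the range of siCONTROL (adjusted p = 0.938, log2 interval -0.23 to 0.26), so siAtf4 lay 1.94-fold below t_0 (adjusted p = 0.000571).

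Rest knockdown lowered Gpt2 as well. Rest encodes a repressor of neuronal genes, and its knockdown changed few genes, 30 of 14876. The siRest libraries held 26, 20.1, 27 and 22.3 CPM, all below the controls, a 1.9-fold fall (log2 -0.93 ± 0.158 SE, adjusted p = 0.0031, edgeR). With only the 2 groups in the fit the fall was 0.92 on the log2 scale with an adjusted p of 0.07, and 5 genes in all were called. No gene of the 7 cell type marker lists was called in siRest. With only 0.202% of all genes called there, that count cannot show whether cell types shifted. Atf4 in siRest was 548 ± 49.6 CPM against 568 ± 36.3 (adjusted p = 1). In siKlf6, Gpt2 stood at 26.5, 34.5, 30.5 and 34.6 CPM, again below every control, but the 1.4-fold difference had an adjusted p of 0.113. The mean was highest in siJun (55.2 ± 5.79), which overlapped siCONTROL.

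The 2 Atf4 mRNA groups differed in Gpt2. They also differed in the Atf4 transcript (14100 ± 3880 CPM in ATF4_mRNA, 20700 ± 9550 in Atf4_mRNA_Cebpg_mRNA). No group received Cebpg alone, so the parts of Cebpg and of the Atf4 level cannot be told apart. GFP_mRNA gave 51.5, 50.3, 41.9 and 44.7 CPM, ATF4_mRNA 47, 51.3, 52.8 and 48.2, and Atf4_mRNA_Cebpg_mRNA 34.5, 37.6, 36.2 and 41. The libraries with Cebpg lay below all others. The fall was 1.26-fold against GFP_mRNA (adjusted p = 0.0215) and 1.33-fold against ATF4_mRNA (adjusted p = 0.0195, edgeR). Both were near the threshold: the former was lost without GFP_mRNA replicate 1 or 2 (adjusted p = 0.0583 and 0.0729) and without Atf4_mRNA_Cebpg_mRNA replicate 2 or 3 (0.0592 and 0.067), and the latter without Atf4_mRNA_Cebpg_mRNA replicate 2 or 3 (0.0584 and 0.0627) and without ATF4_mRNA replicate 2 or 3 (0.0544 and 0.0554).

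The cytosolic Gpt (ENSMUSG00000022546.6) was scarce everywhere. Its group means ran from 1.58 ± 1.09 CPM in ATF4_mRNA, where replicate 4 held 0, to 5.16 ± 0.383 at t_0. In siCONTROL it varied between 0.503 and 4.77 CPM, and in siAtf4 between 1.5 and 4.64. At this depth changes of Gpt under the knockdowns were not detectable: the siAtf4 interval ran from -0.63 to 1.43 on the log2 scale. All siCONTROL libraries lay below the t_0 libraries (4.82 to 5.65 CPM), a difference of -1.19 ± 0.538 SE on the log2 scale with an adjusted p of 0.0787. Without siCONTROL replicate 3, whose 4.77 CPM was nearest to t_0, the fall was called (log2 -1.96, adjusted p = 0.0109). Without siAtf4 replicate 4 so was that of siAtf4 against t_0 (log2 -1.05, adjusted p = 0.0236, from -0.77 and 0.0637 with all libraries).

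The aspartate aminotransferases changed less, and mostly downward. Got1 (ENSMUSG00000025190.14), the cytosolic form, gave 305, 342, 266 and 313 CPM in siCONTROL and 260, 251, 246 and 256 in siAtf4, just below the lowest control. It fell 1.21-fold (log2 -0.28 ± 0.077 SE, adjusted p = 0.0229, edgeR). That call was lost without siCONTROL replicate 2 or 4 (adjusted p = 0.111 and 0.0572) and without siAtf4 replicate 2 or 3 (0.0544 and 0.0703), with no filter on low counts (0.0569) and with only the 2 groups in the fit (0.0604). Against the other 6 knockdowns Got1 was 1.16-fold lower (adjusted p = 0.00888). It rose 1.36-fold from t_0 (196, 244, 198 and 264 CPM) to siCONTROL (adjusted p = 0.00545). In siAtf4 the level was close to t_0 (adjusted p = 0.123), and the rise was called without t_0 replicate 4 (log2 0.26, adjusted p = 0.0211).

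Got1 also fell in siAtf3 and siJun, by similar amounts. Its libraries gave 252, 272, 246 and 268 CPM in siAtf3 and 238, 267, 247 and 242 in siJun, and both groups overlapped the lowest control. The falls were 1.18-fold (adjusted p = 0.0407) and 1.23-fold (adjusted p = 0.0116, edgeR). The former was lost in 9 of 15 alternatives, among them leaving out siCONTROL replicate 1, 2 or 4 (adjusted p = 0.0599, 0.177 and 0.086) or siAtf3 replicate 1, 3 or 4 (0.0993, 0.119 and 0.0502), and the latter without siCONTROL replicate 2 (0.0645) and with only the 2 groups in the fit (0.0541). Neuron markers moved there too: in siAtf3, 5 of 10 fell, where 7.49% of all genes did, and their sum was 9870 to 11700 CPM against 11400 to 13900 in siCONTROL. In siJun 1 of 10 fell and 2 rose (sum 10400 to 12600 CPM), where 4.59% of all genes fell and 3.19% rose. Satellite glia markers summed to 563 to 700 CPM in siAtf3 and 509 to 742 in siJun, below all siCONTROL libraries (760 to 892). Of these 8 markers 1 was called, Glul, which fell in both. Glul averaged 375 CPM of a mean sum of 811 in siCONTROL, 173 of 622 in siAtf3 and 165 of 634 in siJun. The lower sums thus include its fall, and the median log2 fold change over the 8 was 0.08 in siAtf3 and 0.15 in siJun. Schwann cell markers summed to 927 to 1090 CPM in siAtf3, below siCONTROL (1260 to 1490), and to 1030 to 1280 in siJun, with 1 of 7 tested called, Pmp22, which fell in both. The part of these shifts in the result was not tested.

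Got2 (ENSMUSG00000031672.9), the mitochondrial form, did not follow Atf4 knockdown. It held 284, 310, 275 and 277 CPM in siCONTROL and 287, 270, 263 and 275 in siAtf4, which overlap (log2 interval -0.21 to 0.07, adjusted p = 0.668). In siCONTROL it was level with t_0 (299 ± 6.6 CPM, adjusted p = 0.387, edgeR). All siAtf4 libraries lay below those of t_0, with a log2 interval of -0.23 to -0.01 (adjusted p = 0.0627, edgeR). That difference was called by DESeq2's Wald test (adjusted p = 0.0456). In siJun (254, 243, 237 and 239 CPM) and siAlyref (244, 235, 220 and 250 CPM) all libraries lay below the controls. Got2 fell 1.18-fold in siJun (adjusted p = 0.028) and 1.21-fold in siAlyref (adjusted p = 0.0171, edgeR). Alyref encodes an mRNA export adaptor. The call in siJun was lost without siCONTROL replicate 2 (adjusted p = 0.118) or siJun replicate 2, 3 or 4 (0.071, 0.0711 and 0.0761) and with no filter (0.0809). The call in siAlyref was lost without siCONTROL replicate 2 (adjusted p = 0.076) or siAlyref replicate 3 (0.0858), with no filter (0.0533) and with only the 2 groups in the fit (0.0543). In siAlyref the neuron markers Tubb3 and Avil fell too (1.29-fold and 2.32-fold, 2 of 10, where 3.37% of all genes fell; sum 10200 to 11600 CPM), and their part in the result was not tested. In siAtf3 all Got2 libraries lay below the controls, with an adjusted p of 0.162.

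Both aspartate aminotransferases fell when Atf4 mRNA was added. Got1 stood at 318, 368, 320 and 343 CPM in GFP_mRNA, at 276, 268, 248 and 274 in ATF4_mRNA and at 239, 246, 207 and 226 in Atf4_mRNA_Cebpg_mRNA, with no overlap between any of the 3 groups. It fell 1.27-fold (log2 -0.34 ± 0.072 SE, adjusted p = 0.0163) and 1.47-fold (log2 -0.55 ± 0.073, adjusted p = 0.000116, edgeR). Thus Got1 was lower than its control both with less and with more Atf4 transcript. Got2 stood at 277, 326, 287 and 300 CPM in GFP_mRNA, at 239, 247, 237 and 249 in ATF4_mRNA and at 205, 227, 224 and 225 in Atf4_mRNA_Cebpg_mRNA, again without overlap. It fell 1.22-fold (adjusted p = 0.0198) and 1.35-fold (adjusted p = 0.000355). The step from ATF4_mRNA to Atf4_mRNA_Cebpg_mRNA was not called for Got1 (log2 -0.21, adjusted p = 0.104).

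The falls in ATF4_mRNA rest on few libraries. Got1 missed the threshold without GFP_mRNA replicate 2 (adjusted p = 0.0561) or ATF4_mRNA replicate 3 (0.0539), and Got2 without GFP_mRNA replicate 2 or 4 (0.0617 and 0.0513) or ATF4_mRNA replicate 3 (0.0587). With Cebpg added, both genes kept the call in every alternative. Tubb3 fell with them, 1.24-fold and 1.6-fold, 1 of 10 neuron markers fell in each comparison, and Rbfox3 rose 1.28-fold with Cebpg. The summed neuron markers were 11100 to 13100 CPM in GFP_mRNA, 10200 to 11600 in ATF4_mRNA and 9580 to 11500 in Atf4_mRNA_Cebpg_mRNA. The 8 satellite glia markers summed to 602 to 683 CPM in GFP_mRNA, 491 to 571 in ATF4_mRNA and 455 to 574 in Atf4_mRNA_Cebpg_mRNA. Of these 8, Glul fell in both comparisons, 1 of 8 each, and Apoe rose with Cebpg. Glul averaged 366 CPM of a mean sum of 642 in GFP_mRNA, 223 of 526 in ATF4_mRNA and 157 of 518 in Atf4_mRNA_Cebpg_mRNA. The lower sums thus include its fall, and the median log2 fold change over the 8 was 0.04 and -0.01. Endothelial and mural markers summed to 209 to 280 CPM, 272 to 327 and 295 to 357, with 1 of 8 and 3 of 8 called higher. Of 7 tested Schwann cell markers 2 rose and 1 fell with Cebpg. Beside these marker counts, 2.76% of all genes rose and 2.09% fell in ATF4_mRNA, and 12.4% rose and 12.2% fell with Cebpg. Calls of 1 of 10 or 1 of 8 with Cebpg are thus near the share of all genes. The part of these shifts in the result was not tested. The added transcripts took up part of each library: Atf4 made up 0.916% to 1.87% of the counts in ATF4_mRNA and 1.09% to 2.97% in Atf4_mRNA_Cebpg_mRNA, against 0.0578% to 0.0683% in GFP_mRNA. Cebpg made up a further 4.53% to 8.66% in Atf4_mRNA_Cebpg_mRNA, so both together took 5.61% to 11.6% of those counts.

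Whether members changed by different amounts was asked within libraries, from the log2 ratio of a pair of members, by exact two-sided permutation tests of 4 against 4 libraries. The smallest p this design allows is 0.0286, and after adjustment over the 16 tests 0 passed the threshold. A test could pass only if most of the 16 sat at that smallest p. That 0 passed therefore does not show that members changed by equal amounts. Asns relative to Aldh18a1 was 1.61-fold higher in siAtf4 than in siCONTROL, with mean log2 ratios of 3.87 ± 0.07 and 3.18 ± 0.17 (exact p = 0.0286, adjusted 0.114), so the groups did not overlap. Got1 relative to Got2 was 1.15-fold lower in siAtf4 than in siCONTROL, and 1.43-fold higher in siCONTROL than at t_0 (each exact p = 0.0286, adjusted 0.114). With Atf4 and Cebpg mRNA, Asns relative to Aldh18a1 was 1.33-fold lower (the same p). For Aldh18a1 relative to Pycr1 the exact p was 0.143, 0.171, 0.6 and 0.743 over the 4 comparisons, before adjustment.

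Around these 7, few listed genes were called in siAtf4 outside serine synthesis, where 4.17% of all genes fell and 2.74% rose. Of 10 tested genes that use or make asparagine and aspartate, 1 fell, the asparaginyl tRNA synthetase Nars (1.73-fold, adjusted p = 1.49e-09). Of 10 around proline, 2 fell and 1 rose: Eprs, which charges tRNAs with glutamate and proline, fell 1.49-fold (adjusted p = 3.71e-10), the reductase Pycrl fell 1.34-fold (0.00558), and arginase Arg1 rose 3.23-fold (0.00468). Of 11 around alanine, glutamate and glutamine, 1 fell, the alanyl tRNA synthetase Aars (1.59-fold, adjusted p = 8.75e-09), and 0 of 6 malate-aspartate shuttle genes changed. In serine and one-carbon synthesis 7 of 7 fell with a median log2 of -1.42, among them Mthfd2 (3.37-fold), Psat1 (2.68-fold) and Phgdh (3.01-fold). The lists, like the members, were chosen with earlier results of these data known. The other lists had median log2 values of -0.11 (asparagine and aspartate), -0.09 (proline), -0.15 (alanine, glutamate and glutamine) and -0.14 (shuttle), against 0 over all genes.

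Some markers of cell types moved in siAtf4 as well. Of 10 neuron markers 3 rose and 0 fell, where 2.74% of all genes rose, and their sum was 11800 to 13200 CPM against 11400 to 13900. Of 8 satellite glia markers 1 rose, while their sum was 628 to 759 CPM against 760 to 892 in siCONTROL, without overlap. Glul, 1 of these 8, averaged 306 CPM of a mean sum of 712 in siAtf4 and 375 of 811 in siCONTROL. No marker of Schwann cells, fibroblasts, endothelial and mural cells, macrophages or red blood cells was called. Their median log2 fold changes were, in that order, -0.24, -0.26, -0.16, -0.31 and -0.75. The median was -0.18 for satellite glia and 0.06 for neuron markers, against 0 over all genes. The part of these shifts in the members' falls was not tested.

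From t_0 to siCONTROL, where 28.7% of all genes rose and 29.2% fell, Asns, Aldh18a1, Pycr1 and Got1 rose beside all 7 serine and one-carbon genes and 3 cytosolic tRNA synthetases. The serine and one-carbon genes included Psat1 (4.67-fold), Mthfd2 (4.37-fold) and Phgdh (3.81-fold). Aars rose 3.2-fold, Nars 2.11-fold and Eprs 1.86-fold. Of 6 listed shuttle genes, which do not include Got1 and Got2, 4 fell and 0 rose, among them the oxoglutarate carrier Slc25a11 (1.82-fold) and cytosolic malate dehydrogenase Mdh1 (1.66-fold), and so did Abat (2.99-fold), which breaks down GABA. The other lists moved in both directions: around asparagine and aspartate 4 of 10 rose and 2 fell, around proline 2 of 8 rose and 1 fell, and around alanine, glutamate and glutamine 3 of 10 rose and 4 fell, and nothing is read from these counts beside the 28.7% and 29.2% of all genes. Cell type markers moved as well: 7 of 10 neuron markers fell (sum 16700 to 17800 CPM at t_0), 6 of 8 satellite glia markers fell and 2 rose (sum 4550 to 5620 CPM at t_0 and 760 to 892 in siCONTROL), 6 of 8 Schwann cell markers fell, all 4 tested red blood cell markers fell, and 5 of 8 endothelial and mural markers rose and 2 fell. The part of that shift in the members' rise was not tested.

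With added mRNA the neighbours changed in other places. In ATF4_mRNA glutamine synthetase Glul fell 1.64-fold (adjusted p = 0.00546), and Aldh1l2 and Shmt2 of the one-carbon list rose (1.93-fold and 1.23-fold), 2 of 7 where 2.76% of all genes rose. Glul is also among the 8 satellite glia markers, whose sum was lower in both Atf4 groups as given above. Its own fall is part of those lower sums, so they are not a separate measure of glia beside it. The part of glia in the fall of Glul was not tested. In Atf4_mRNA_Cebpg_mRNA the mitochondrial arginase Arg2 rose 13.3-fold (adjusted p = 7.05e-05), from 0.967 ± 0.763 to 13.4 ± 5.2 CPM. Ornithine aminotransferase Oat, which links ornithine to the proline precursor, rose 1.34-fold (0.00372), and Aldh4a1, which oxidizes that precursor to glutamate, rose 1.31-fold (0.0405), so 3 of 9 proline neighbours rose and 1 fell, where 12.4% of all genes rose and 12.2% fell. Glul fell 2.33-fold and Abat rose 1.94-fold. Of the 7 genes of the serine and one-carbon list 0 rose and 1 fell (Psat1, 1.18-fold), against the same shares of all genes.

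The genes whose levels ran most closely with the members were listed over the 32 knockdown and siCONTROL libraries, by Pearson's r of log2 CPM. For Asns these were Atf4 (0.98), Mthfd2 (0.98), Wars (0.97), Hspa9 (0.97) and Gars (0.97), where Wars and Gars are tRNA synthetases and Hspa9 a mitochondrial chaperone. Without the 4 siAtf4 libraries their r was 0.66, 0.64, 0.74, 0.67 and 0.56. For Aldh18a1 they were Phf10, Mthfd2, Chac1, Tmbim6 and Asns (0.94 to 0.93, and 0.64 to 0.37 without siAtf4). For Pycr1 they were Tmbim6, Armh3, Slc1a4, Prr32 and Slc6a9 (0.87 to 0.85, and 0.62 to 0.7 without siAtf4). The values for Asns, Aldh18a1 and Pycr1 thus lean on the siAtf4 group, whose libraries stand apart. Gpt2 had other neighbours, Pik3cb (0.84), Ephx4 (0.81), Tom1l1, Gdf15 and Tbrg1, with 0.78, 0.77, 0.67, 0.67 and 0.67 without siAtf4. These libraries share treatments and depth, and the correlations are a description.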

How the data were processed

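The library kit was Illumina Stranded mRNA Prep, per the labels. The authors deposited expected counts (estimated counts, which need not be whole) per gene. The submitters' processing notes name kallisto and GRCm39; no version, and no scaling of the counts, is stated there. In 3003 single-transcript genes, low values multiplied by transcript length clustered near 1912 to 2219 bp, the form of counts weighted by length, so the count model's error is approximate. All 48 columns matched a sample, 0 were unused and 0 pairs were identical. Symbols were given to 32470 of 34183 genes (95%).

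Counts were rounded and kept by filterByExpr, scaled by TMM and tested with edgeR 4.0.16 (glmQLFit, glmQLFTest) in R 4.3.3, with Benjamini-Hochberg adjustment over all genes tested and a threshold of 0.05. The 8 knockdown and control groups were fitted together, the 3 mRNA groups together, and each comparison with t_0 alone. Fold changes carry SE, and CPM carries SD over 4 libraries. Reads counted on transcripts can be shared between paralogs. The script was tested on simulated data. Alternatives were DESeq2 1.42.0 (its size factors and its Wald test), upper-quartile scaling, no filter, limma-trend (limma 3.58.1, log2 CPM with a prior count of 2), a replicate block, only the 2 groups compared, and each library left out. All 7 members are named. Of each neighbour list, up to 3 genes per direction with the smallest adjusted p are named in the siAtf4, mRNA and culture comparisons. The 5 genes most like a member were taken by Pearson's r. Members and lists were chosen with earlier results of these data known. Promoters came from RefSeq (GRCm38.p6) for 6 of 7 members.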

Additional observations from a re-analysis of the deposited data

Results flagged for a closer look

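Among 84 sets of 4 libraries of a group, 3 held a library whose gap to the nearest other, as a share of the group's range, passed Dixon's 95% limit, and chance alone flags about 1 in 20. Aldh18a1 stood at 46.6 CPM in siKlf6 replicate 1, the shallowest library, against 34.2 to 36.3 in the others. Pycr1 stood at 15.6 CPM in siRest replicate 3, against 7.81 to 8.59. Got2 stood at 205 CPM in Atf4_mRNA_Cebpg_mRNA replicate 1, against 224 to 227. None of the 3 lies in a comparison whose call for that gene was lost when the library was left out.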

How the results depend on the processing

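Of 91 fitted member values, 30 were called. Of these 17 kept the call in every alternative, 13 lost it in some and 0 reversed, while 6 uncalled values gained a call. The falls of Asns, Aldh18a1, Pycr1 and Gpt2 in siAtf4 were called in all 15. Counts of called members moved as follows. Without a filter on low counts, siAtf3 had 1 (from 2), siJun 1 (from 3) and siAlyref 0 (from 1). By limma-trend siAtf3 had 1, where Got1 had an adjusted p of 0.054, and in siJun Pycr1 had 0.0629 (0.0642 with no filter). With only the 2 groups compared, siAtf3 had 1, siRest 0 and siAlyref 0. Leaving out each library gave 0 to 2 in siAtf3, 0 to 3 in siJun, 0 to 1 in siAlyref, 0 to 2 in ATF4_mRNA against GFP_mRNA, 2 to 5 in Atf4_mRNA_Cebpg_mRNA against GFP_mRNA and 0 to 1 between the 2 Atf4 groups; the counts of 0 came without siCONTROL replicate 2, siAlyref replicate 3, GFP_mRNA replicate 2, ATF4_mRNA replicates 2 or 3 and Atf4_mRNA_Cebpg_mRNA replicates 2 or 3. The labels do not say that replicate numbers pair samples, and same-numbered libraries correlated by 0.03 to 0.18. With the replicate block, the comparison of Atf4_mRNA_Cebpg_mRNA with ATF4_mRNA had 2 called members (from 1; Got1 at an adjusted p of 0.0365), and no other count of members moved by over 1.5 times. Counts of all genes called moved by over 1.5 times with only the 2 groups compared in siStat3 (204, from 450), siKlf6 (18, from 275), siRest (5, from 30) and siAlyref (352, from 633). They also moved with the replicate block in siStat3 (751), siRest (46) and ATF4_mRNA against GFP_mRNA (1028, from 671), and in siRest without a filter (18) and by DESeq2's Wald test (54). Depth limits Gpt and Pycr1, the scarcest members.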
